A study of Homo sapiens with 2 samples.

Results

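ULBP1, ULBP2, ULBP3, MICA and MICB encode ligands of NKG2D, and their 5 transcripts were compared between a control library and a PHF12 knockdown library of H1299 cells. The 5 genes were taken by name from a table of 38637 genes, and all 5 passed the filter of an average level of 1 CPM or more over both libraries (CPM, counts per 1000000 counts), which 14559 genes passed. The family was chosen because ULBP1 had been seen among the lowest genes of the knockdown library, so its difference is given as a description and the rest of the family was looked at around it. ULBP1 stood at 0.507 of its control level, ULBP3 at 0.752 and ULBP2 at 0.871, while MICA stood at 1.15 times and MICB at 0.934 of the control level.

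NKG2D is an activating receptor of natural killer (NK) cells and of some T cells, encoded by KLRK1. Its ligands are scarce on most healthy cells and appear on infected, stressed and transformed cells, which NK cells then recognise and can kill. The ligands form a pair of branches. MICA and MICB are MHC class I chain-related proteins with a transmembrane segment, encoded in the MHC region. ULBP1, ULBP2 and ULBP3 were named as UL16-binding proteins after a cytomegalovirus protein that holds some of them inside infected cells; they are attached to the membrane by a glycosylphosphatidylinositol (GPI) anchor and belong to the RAET1 gene cluster on the long arm of chromosome 6. Among their known regulators, ATF4, the transcription factor of the amino acid response, activates ULBP1, and heat shock factor acts on MICA and MICB.

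H1299 is an established line of human non-small cell lung cancer grown from a metastasis in a lymph node, and PHF12 is a PHD finger protein of a Sin3 and histone deacetylase corepressor complex. Both samples carry the genotype label wild type. The control is labelled as untreated with a title ending in nc, and the other as PHF12 KD with si-phf12 in its title; no source used here gives the oligonucleotides or says whether the control received one. There were 2 libraries, 1 per group, made from poly(A)-selected RNA, so every difference describes these libraries and has no replicate check. The intervals below are 95% intervals for counting error only.

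The libraries held 24740581 and 26084594 counts. PHF12 itself had 947 control counts against 756 after knockdown, a ratio of 0.753 (0.683 to 0.829). Its interval was below 1, like those of 20.9% of the 14559 genes that passed the filter. It was less than 1.5-fold lower, and 4.57% of those genes, ULBP1 among them, had a lower log2 fold change. The labelled cell type was checked against 5 markers: KRT8, KRT18 and VIM, which encode keratins and vimentin, stood between 888 and 5349 TPM with a median log2 fold change of −0.33, EPCAM stood at 1.38 and 1.74 TPM, and CDH1 (E-cadherin) had 0 counts in both libraries. Of 9 markers of NK and other blood cells, 6 had 0 counts in both libraries, among them PTPRC (CD45), TYROBP and PRF1. KLRK1 had 1 and 4 counts, CD14 had 4 and 3, and HCST, the signalling adaptor of NKG2D, had 52 and 80. The summed level of the list was 7.22 TPM without and 10.6 TPM with the knockdown, mostly HCST, and its part in the results was not tested.

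The sequences just before the start of the ULBP genes are shown because 1 member of this branch stood far below the others. They are the 250 bases before the start site in RefSeq (GRCh38.p14), 5′ to 3′ on the strand of the gene. Capitals mark TGACG or its reverse complement CGTCA, the core bound by factors of the ATF and CREB family. ULBP1 lies at chr6:149963693-149963942 on the plus strand, ULBP2 at chr6:149941764-149942013 on the plus strand and ULBP3 at chr6:150069122-150069371 on the minus strand.
ULBP1: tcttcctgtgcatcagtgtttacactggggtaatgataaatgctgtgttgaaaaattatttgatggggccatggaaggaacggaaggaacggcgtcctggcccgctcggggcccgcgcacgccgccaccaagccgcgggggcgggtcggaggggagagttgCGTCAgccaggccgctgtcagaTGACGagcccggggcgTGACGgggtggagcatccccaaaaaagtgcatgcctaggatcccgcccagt
ULBP2: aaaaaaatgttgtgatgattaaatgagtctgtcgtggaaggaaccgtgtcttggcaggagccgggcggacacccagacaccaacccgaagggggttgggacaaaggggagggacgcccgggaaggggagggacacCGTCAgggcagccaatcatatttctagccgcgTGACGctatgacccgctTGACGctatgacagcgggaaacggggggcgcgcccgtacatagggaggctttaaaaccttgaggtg
ULBP3: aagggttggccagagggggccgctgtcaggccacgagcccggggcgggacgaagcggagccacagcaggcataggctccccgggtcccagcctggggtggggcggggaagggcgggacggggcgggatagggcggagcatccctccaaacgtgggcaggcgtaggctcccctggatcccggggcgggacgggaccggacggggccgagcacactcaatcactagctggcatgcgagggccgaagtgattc

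ULBP1 held 3 TGACG cores, from 89 to 85, 67 to 63 and 51 to 47 bases before the start. ULBP2 held 3 as well, from 115 to 111, 83 to 79 and 66 to 62 bases before the start, and ULBP3 held none. The background was taken over the promoter table without chromosome 8. There, at least 1 TGACG core was found in 27.5% and at least 3 in 1.60% of 16197 windows. These belong to 11239 measured genes, some with several starts. For each member only 1 start was searched. The full site TGACGTCA contains the TGACG core on both strands. It was found in none of the 5 member windows and in 2.40% of the background windows. The C/EBP-ATF element TGATGNAAN (or NTTNCATCA) was found in none of the 5 and in 1.67%. ULBP3 held 6 copies of the GC box GGGCGG (or CCGCCC), ULBP1 held 2 and ULBP2 held 1, and 62.7% of the windows held at least 1. A match shows letters and not binding, and the 67 bases of the ULBP2 window nearest the start lie inside the gene's span in the deposited table.

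MICA and MICB share most of their upstream sequence. Their 250-base windows, chr6:31403345-31403594 and chr6:31497895-31498144 on the plus strand, had 82.7% identical bases in a global alignment, against 39.9% to 48.7% for the other 9 pairs of members. Both windows held the heat shock element core GAANNTTC once, which 4.25% of the windows of measured genes held and which none of the ULBP windows held. Neither held a TGACG core. Both windows lie wholly inside the gene spans of the deposited table, which start further upstream.

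**Figure D1:**
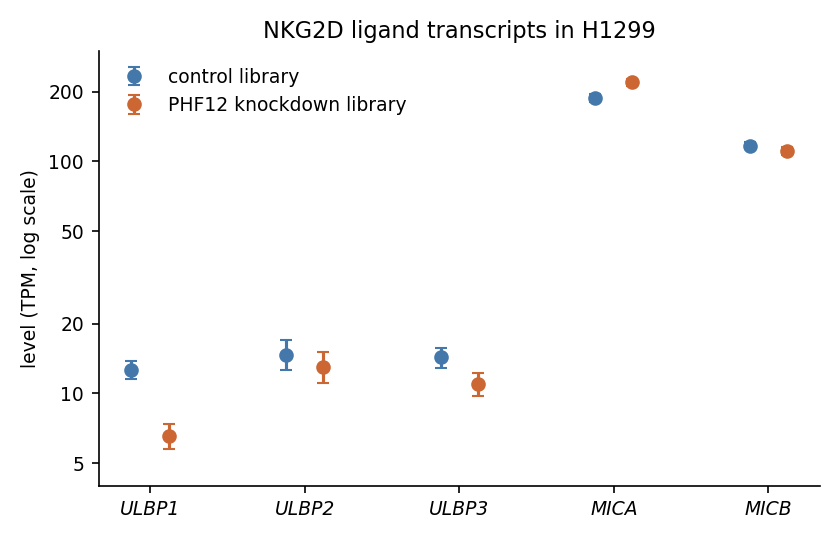
Level of the 5 NKG2D ligand transcripts in the control library (blue) and the PHF12 knockdown library (orange), in TPM on a log axis; points are single libraries and bars are 95% counting intervals. MICA and MICB stand above 100 TPM in both libraries, the 3 ULBP genes below 15 TPM, and the intervals of the 2 libraries do not overlap for ULBP1, ULBP3 and MICA, with the widest gap for ULBP1.

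Per length, the MIC branch was more abundant than the ULBP branch. MICA had 188 TPM (transcripts per 1000000 transcripts, the authors' values; 180 to 195) in the control library and 220 TPM (212 to 228) in the knockdown library. MICB had 117 TPM (113 to 122) and 111 TPM (107 to 116). Together MICA and MICB made up 88.0% of the summed TPM of the 5 ligands in the control library, against 91.6% after knockdown. As shares of counts they were 82.1% and 87.9%.

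In the control library the ULBP genes were close together, with ULBP2 at 14.7 TPM (12.6 to 17.0), ULBP3 at 14.3 TPM (12.9 to 15.8) and ULBP1 at 12.7 TPM (11.6 to 13.8). With the gene lengths of the deposited table these 3 neighbours in the order do not differ beyond their counting intervals. The order depends on those lengths, which are 4559 bases for ULBP1, 1402 for ULBP2 and 3111 for ULBP3. Per kb of the longest GENCODE transcript (3142, 1349 and 988 bases), ULBP3 had 399.8 control counts (361 to 441), ULBP1 had 163 (149 to 178) and ULBP2 had 136 (117 to 157). By that length, chosen after the data were seen, ULBP3 stood 2.45 times as high as ULBP1, and MICA and MICB were level at 1066 and 1061 counts per kb. The MIC genes stood above the ULBP genes by either length. In the knockdown library ULBP2 stood at 13.0 TPM (11.1 to 15.1), ULBP3 at 10.9 TPM (9.75 to 12.2) and ULBP1 at 6.53 TPM (5.78 to 7.35). By the deposited lengths the intervals of ULBP2 and ULBP3 overlap there, and that of ULBP1 lies below both. Its share of the ligands' TPM was 3.65% of the control sum and 1.81% of the knockdown sum, while by counts, which do not correct for length, the shares were 8.42% and 4.41%. The summed TPM of the 5 ligands was 346 and 361.

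ULBP1, gene ID 80329, lies on chromosome 6 from 149963943 to 149973715 on the plus strand (hg38). In the control library 513 counts fell on it, and in the knockdown library 276. The ratio of the scaled counts was 0.507 (0.437 to 0.588), a log2 ratio of −0.98 (−1.20 to −0.77). It was the only member at least 1.5-fold lower, a size that 1.41% of the 14559 measured genes reached downwards, and it was just short of the 2-fold line that 0.117% passed downwards. By log2 fold change with 0.5 CPM added, at −0.95, it ranked 23rd from the lowest of all measured genes, and 10th of 11069 protein-coding genes that averaged 5 CPM or more. Of 4147 genes whose mean CPM was within 2-fold of that of ULBP1, 4 stood lower. In a bulk library, fewer cells that express a gene and less RNA per cell cannot be told apart. These ranks are what the family was chosen for and are no separate evidence.

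ULBP3, gene ID 79465, lies on the same chromosome from 150061053 to 150069121 on the minus strand. Its counts were 395 in the control and 315 after knockdown, a ratio of 0.752 (0.646 to 0.874) and a log2 ratio of −0.41 (−0.63 to −0.19). The interval lies below 1, as it did for 20.9% of all measured genes, and 4.77% of the measured genes had a lower log2 fold change. ULBP2, gene ID 80328, from 149941947 to 149949235 on the plus strand, had 183 and 169 counts. Its ratio was 0.871 with an interval from 0.702 to 1.08, so a difference was not detectable at this depth. All 3 ULBP genes had fewer counts in the deeper, knockdown library. Their summed counts of 1091 and 760 gave a ratio of 0.657 (0.598 to 0.721), and without ULBP1 the sums of 578 and 484 gave 0.790 (0.698 to 0.893). The first sum holds ULBP1, on which the family was chosen, and is no separate evidence. Genes in a sum are not replicates, and the sums leave out the other RAET1 genes given below.

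MICA, gene ID 100507436, lies on chromosome 6 from 31400711 to 31415315 on the plus strand. Its counts were 2409 in the control and 2936 after knockdown. Its ratio was 1.15 (1.09 to 1.21), and intervals above 1 were found for 20.3% of all measured genes. MICB, gene ID 4277, from 31494918 to 31511124, had 2595 and 2569 counts and a ratio of 0.934 (0.884 to 0.986); on the scale of the deposited TPM its log2 ratio was −0.07 (−0.15 to 0.01), an interval that just included no difference. Summed, the pair had 5004 and 5505 counts, a ratio of 1.04 (0.998 to 1.08). MICA was higher and MICB slightly lower, so the ratio of MICA to MICB in TPM was 1.60 in the control library and 1.98 after knockdown, by the deposited lengths.

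**Figure D2:**
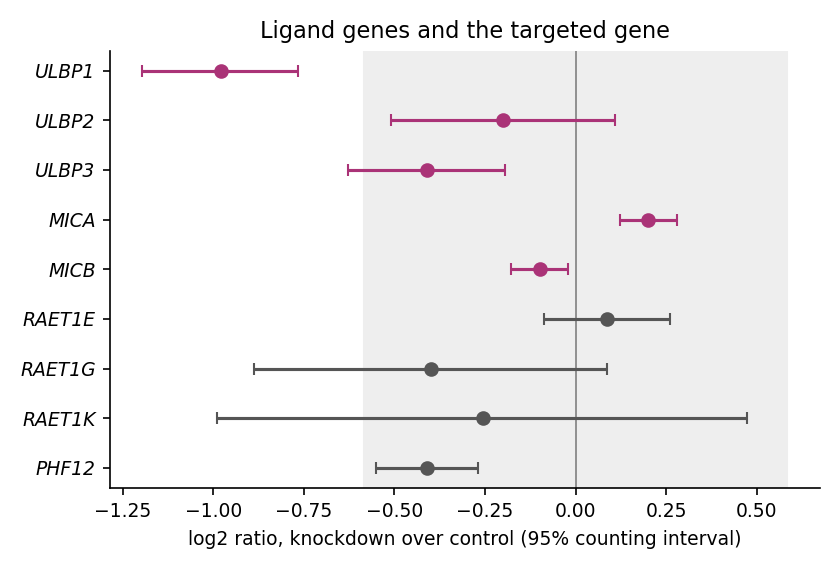
Log2 ratio of scaled counts, knockdown over control library, for the 5 ligands (purple), 3 other genes of the RAET1 cluster and PHF12 (grey), with 95% counting intervals; the shaded band is 1.5-fold either way. The ULBP1 interval lies wholly outside the band and the ratios of the other 4 members lie inside it. Of the 5 members, only MICA is above 0.

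The members were also set against each other, which needs no scaling between the libraries. Of 10 pairs, 8 had an interval of the difference in log2 ratio that excludes 0. The pairs share members and are not independent, and no share over pairs of all genes was computed. For single genes, counting intervals lay below 0 for 20.9% and above 0 for 20.3% of all measured genes, so the number of pairs is a description only. ULBP1 was lower than ULBP3 by a difference of −0.57 (−0.88 to −0.26), than ULBP2 by −0.78 (−1.16 to −0.40), than MICB by −0.88 (−1.11 to −0.65) and than MICA by −1.18 (−1.41 to −0.95). These 4 follow from how the family was chosen. Among the other 6 pairs, 4 excluded 0: MICA stood above MICB by 0.30 (0.19 to 0.41), ULBP3 stood below MICA by −0.61 (−0.84 to −0.38) and below MICB by −0.31 (−0.54 to −0.08), and ULBP2 stood below MICA by −0.40 (−0.72 to −0.08). For ULBP2 against ULBP3 the difference was 0.21 (−0.17 to 0.59), and for ULBP2 against MICB −0.10 (−0.42 to 0.22), so the sign of these differences could not be read at this depth. With 1 library per group these intervals hold counting error alone.

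**Figure D3:**
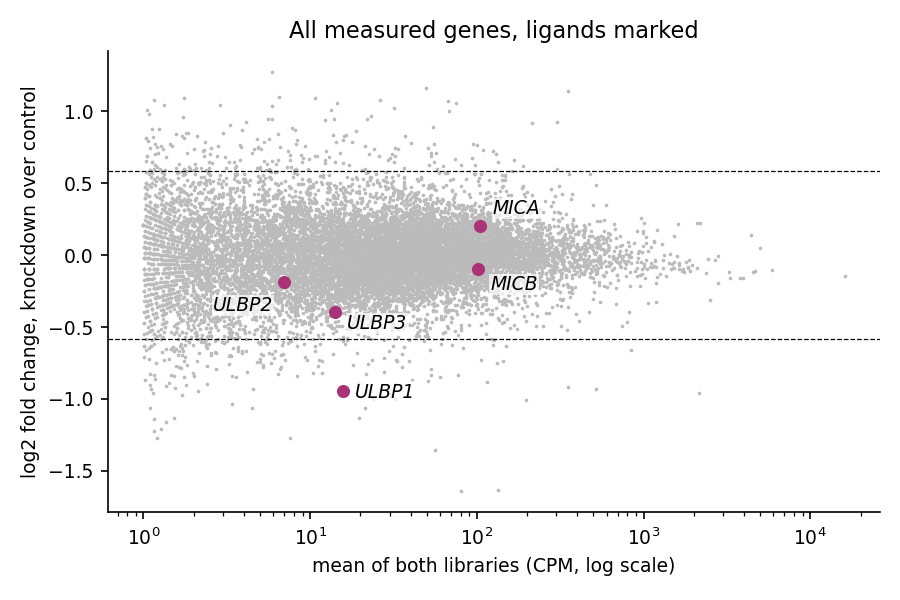
Log2 fold change (knockdown over control, 0.5 CPM added) against the mean CPM of both libraries on a log axis for all 14559 measured genes (grey), with the 5 ligands in purple and dashed lines at 1.5-fold. ULBP1 lies at the lower edge of the genes of its level, and the other 4 ligands lie between the dashed lines.

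How far reads can be told apart differs between the members. Of the windows of 75 bases along the longest protein-coding transcript in GENCODE release 29, none of 2186 in MICA and none of 2372 in MICB occurred in a transcript of another gene. In ULBP1 97 of 3068 windows (3.16%) did, all in the pseudogene RAET1K and 25 of them in ULBP3 too. In ULBP3 86 of 914 (9.41%) were shared. ULBP2 shared the most, 262 of 1275 (20.5%), with 237 in RAET1L and 70 in RAET1G. RAET1L had 0 counts in both libraries, which does not exclude a low level. No source used here says how reads that match several genes were counted, so the ULBP2 value is the least certain. MICA and MICB are highly polymorphic genes, and the alleles of the line were not compared with the reference.

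The other genes of the RAET1 cluster encode further NKG2D ligands or are pseudogenes. RAET1E, also known as ULBP4, had 515 and 580 counts, a ratio of 1.06 (0.942 to 1.20). Its span overlaps RAET1E-AS1 on the other strand, which had 537 and 424 counts and a ratio of 0.745 (0.654 to 0.847). RAET1G had 82 and 66 counts, with a ratio of 0.759 and an interval from 0.540 to 1.06. RAET1E-AS1 overlaps RAET1G too, over 2631 bases, and LRP11 at its other end, over 862 bases. The strand setting is not given, so reads in these overlaps could have come from either gene. The pseudogene RAET1K had 36 and 32 counts, a ratio of 0.838 (0.504 to 1.39). None of the 3 measured genes was past 1.5-fold, and their median log2 fold change was −0.19, beside −0.01 over all measured genes. Over all measured genes 1.41% were at least 1.5-fold lower and 1.33% higher, so a count of 0 in 3 is near the background. No listed gene overlaps any of the 5 members.

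Neighbouring genes gave a view of the surrounding chromosome. In the 250 kb to either side of each ULBP gene, 8 genes that are no members were measured, and 0 of them were past 1.5-fold, a size that 1.41% of all measured genes reached downwards and 1.33% upwards. Their log2 fold changes ran from −0.41 for RAET1E-AS1 to 0.08 for RAET1E, with a median of −0.16. LRP11, a receptor-related membrane protein gene that overlaps RAET1E-AS1, stood at 0.791 (0.745 to 0.840) on 2415 and 2026 counts. PCMT1, which encodes a protein repair methyltransferase, stood at 1.03 (0.987 to 1.08) on 3945 and 4314 counts, and the nucleoporin gene NUP43 at 0.937 (0.883 to 0.995). LOC645967, a long non-coding RNA gene with 63 and 60 counts, stood at 0.898 (0.620 to 1.30) and overlaps LATS1 on the other strand. Over 8 genes a count of 0 is near the background and says nothing particular about this stretch.

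**Figure D4:**
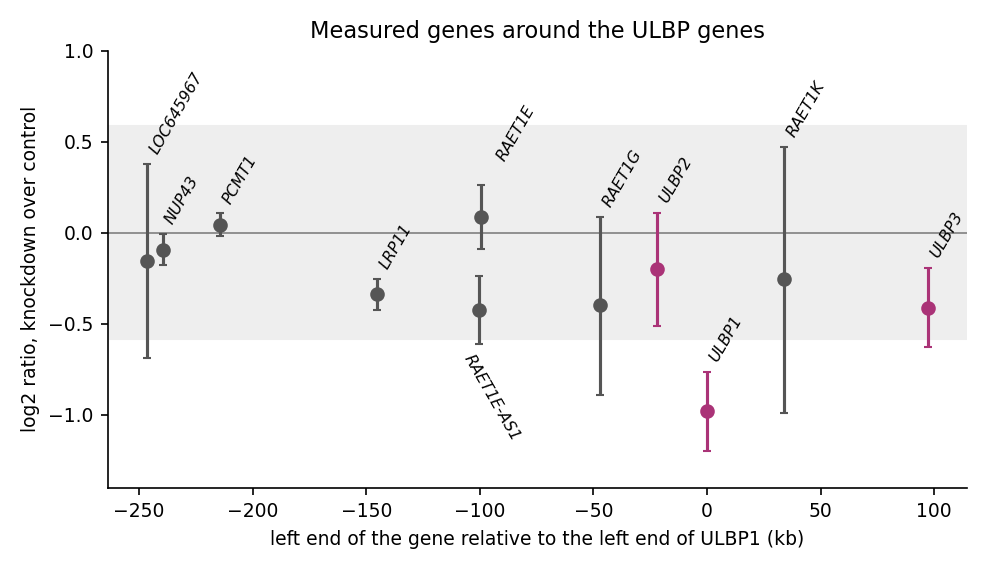
Log2 ratio (knockdown over control library, with 95% counting intervals) of the measured genes around the ULBP genes, by the position of each gene's left end relative to that of ULBP1 in kb; ligands among the members are purple, other genes grey, and the shaded band is 1.5-fold either way. ULBP1 is the only point below the band, between ULBP2 and RAET1K.

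Around MICA and MICB, 19 other genes were measured and 0 were past 1.5-fold, with a median log2 fold change of 0.06. Beside 1.41% lower and 1.33% higher over all measured genes, a count of 0 is near the background here too. The genes ATP6V1G2-DDX39B and DDX39B among them overlap on the same strand and had similar counts. The highest was the long non-coding RNA gene MICA-AS1, which lies next to MICA on the other strand, with 180 and 257 counts and a ratio of 1.35 (1.11 to 1.64). MICB-DT, upstream of MICB on the other strand, had 79 and 81 counts and a ratio of 0.967 (0.700 to 1.34). The lowest was ABHD16A, a lipid hydrolase gene, at 0.775 (0.698 to 0.860). HLA-B and HLA-C, the classical class I genes of the same stretch, stood at 0.979 (0.943 to 1.02) and 0.997 (0.955 to 1.04).

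The 5 protein-coding genes whose log2 fold change was closest to that of ULBP1, over the 2 libraries and averaging 5 CPM or more, were PABPC1, VCL, ELFN1, HNRNPM and CMBL. They differed from it by 0.01 to 0.05. PABPC1 encodes a poly(A)-binding protein, VCL vinculin, HNRNPM a splicing regulator and CMBL a hydrolase. CMBL, the furthest of the 5, had 1042 and 587 counts and a ratio of 0.531 (0.479 to 0.588). The 3′ UTRs of VCL, HNRNPM and CMBL held ACATCGA or CATCGAA, words picked earlier on these fold changes because genes that stood lower hold them often: 14.0% of 171 protein-coding genes at least 1.5-fold lower did, beside 2.71% of 12323 measured. None of the 5 ligands held either word in its longest GENCODE 3′ UTR, which ran from 224 bases in ULBP3 to 2364 in ULBP1. None held the words TCGGAGA or ATCGGAG, picked on the genes that stood higher and held by 3.10% of those measured. Over 5 genes a count of 0 is near these shares. The deposited lengths of ULBP1 and ULBP3 exceed those of the transcripts searched, so part of the counted sequence may not have been searched. These letters, too, are a description of the sequences.

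**Figure D5:**
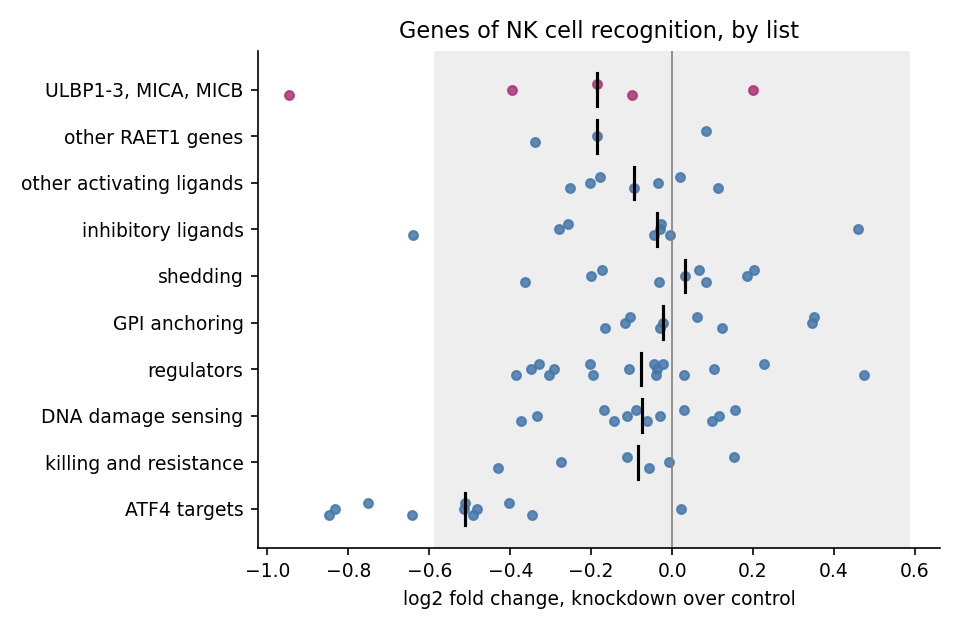
Log2 fold change (knockdown over control, 0.5 CPM added) of the measured genes of 10 lists; each point is a gene, black bars are list medians and the shaded band is 1.5-fold either way. The ligand list (purple) is spread from −0.95 to 0.20, and the list of ATF4 targets has the lowest median at −0.51.

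None of the listed regulators of the ligand genes was past 1.5-fold in level. For this list and those that follow, the background is 1.41% of measured genes at least 1.5-fold lower and 1.33% at least 1.5-fold higher, so a count of 0 in a list of this size is near the background. Of 17 on the list, 16 were measured, with a median log2 fold change of −0.08. ATF4 had 8673 and 7983 counts, a ratio of 0.868 (0.842 to 0.895). RBM4, an RNA-binding protein linked to ULBP1 splicing, stood at 0.973 (0.921 to 1.03). The lowest ratio was that of TP73, a transcription factor gene, at 0.743 (0.569 to 0.968) on 132 and 104 counts. The highest was that of the histone deacetylase gene HDAC1 at 1.39 (1.33 to 1.46), while HDAC3, a deacetylase linked to repression of ULBP genes, stood at 0.872 (0.811 to 0.937). HSF1, the heat shock factor, stood at 0.969 (0.933 to 1.01).

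Most of the listed target genes of ATF4, which leave out ULBP1, stood lower. Of 11 listed, 10 had an interval below 1, beside 20.9% of all measured genes, and 4 were at least 1.5-fold lower, beside 1.41%. The 4 were STC2 (0.552, 0.512 to 0.595), CHAC1 (0.558, 0.515 to 0.604), DDIT4 (0.592, 0.564 to 0.622) and SESN2 (0.638, 0.600 to 0.679). CHAC1 degrades glutathione, and DDIT4 and SESN2 restrain mTOR. The median was −0.51 and the highest member, the lipoprotein receptor gene VLDLR, stood at 1.02 (0.945 to 1.09). This list was chosen with its direction known. The 20.9% is over genes of all levels, and counting intervals narrow as counts rise. ULBP1, at −0.95, stood below the lowest listed target, STC2 at −0.85, though the counting intervals of their log2 ratios overlap.

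Genes that act on the ligand proteins after translation were taken as a pair of lists. Among 9 measured genes of ligand shedding, 0 were past 1.5-fold and the median was 0.03. ADAM10, a metalloproteinase that cleaves MICA from the surface, stood at 1.15 (1.09 to 1.21), and ADAM17 at 1.05 (0.987 to 1.11). The disulfide isomerase gene PDIA6, also known as ERp5, stood at 0.886 (0.857 to 0.917). The lowest of the list was MMP9, at 0.733 (0.494 to 1.08) on 63 and 49 counts. Among 9 genes of GPI attachment and anchor remodelling, which the ULBP proteins need, 0 were past 1.5-fold and the median was −0.02. Here GPAA1 at 1.28 (1.20 to 1.36) and PIGU at 1.28 (1.15 to 1.42), both of the GPI transamidase, were the highest, and PGAP2 at 0.888 (0.762 to 1.03) was the lowest.

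Ligands of other NK cell receptors were compared in the same way. Of 7 measured ligands of other activating or adhesion receptors, 0 were past 1.5-fold, with a median of −0.09. NECTIN2, a ligand of DNAM-1, stood highest at 1.08 (1.05 to 1.11), and PVR, its partner ligand of the same receptor, at 0.937 (0.901 to 0.975). NCR3LG1, the B7-H6 ligand of NKp30, stood at 0.882 (0.807 to 0.964) and the adhesion gene ICAM1 at 0.868 (0.822 to 0.917). CLEC2B was lowest, at 0.803 (0.530 to 1.21) on 54 and 46 counts.

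Among 8 ligands of inhibitory receptors, 1 was at least 1.5-fold lower and 0 higher, beside 1.41% and 1.33% of all measured genes, with a median of −0.04. It was CEACAM1, at 0.550 (0.332 to 0.895) on 48 and 28 counts. Its log2 fold change of −0.64 became −0.51 with a pseudocount of 1 CPM, inside the 1.5-fold band, and a minimum of 5 CPM removed it and left 5 genes, 0 of them past 1.5-fold. HLA-E, the ligand of NKG2A, had 5269 and 4672 counts and stood at 0.836 (0.804 to 0.870). CD274, which encodes PD-L1, was highest at 1.48 (1.01 to 2.19) on 46 and 72 counts. B2M, the light chain of class I molecules, stood at 0.981 (0.955 to 1.01).

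DNA damage sensing is known to induce NKG2D ligands. Of 12 genes of the ATM and ATR pathways 0 were past 1.5-fold, with a median of −0.07. ATM was highest at 1.11 (1.05 to 1.18), ATR stood at 0.979 (0.914 to 1.05), and HUS1, a clamp subunit, was lowest at 0.750 (0.572 to 0.982). Among 6 genes of death receptors and resistance to killing 0 were past 1.5-fold, with a median of −0.08. The death receptor gene FAS was lowest at 0.732 (0.615 to 0.869), and CASP8, the caspase it engages, was highest at 1.11 (1.004 to 1.24).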

How the data were processed

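RNA-seq of 2 H1299 libraries was used, grouped by the treatment label, with each column matched to its sample by title. HISAT2 (alignment, hg38) and HTSeq (counting) were used, per the submitters' processing notes; no source used here gives their versions, the annotation or the strand setting. The authors deposited raw counts per gene and TPM values, which equal counts over listed length scaled to 1000000 within 1e-06. The libraries hold 24740581 and 26084594 counts, 0 of them without a gene name.

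From the counts, TMM factors were computed with edgeR 4.0.16 (R 4.3.3) and CPM on the scaled sizes. Ratios carry no pseudocount and a 95% interval from the exact binomial (Clopper-Pearson) split of the counts of both libraries; TPM intervals are exact Poisson. Fold changes over all genes add 0.5 CPM, for genes averaging 1 CPM or more, and the size rule is 1.5-fold. No p-value was made. Differences between members use the exact conditional odds ratio. Steps used Python 3.11.15, scipy 1.17.1 and matplotlib 3.10.9. The ratio interval and the size rule were tested on simulated counts that held counting error only. That test says nothing about variation between libraries, and it did not cover the sequence steps. Promoters are from RefSeq (5 of 5 members matched, 1 start each, chromosome 8 left out of the background) and transcripts from GENCODE release 29.

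The members, the 11 other gene lists and the settings were chosen with earlier results of these data known. Named genes are the members, list members past 1.5-fold, the highest and lowest of each list, genes within 250 kb and the 5 nearest in fold; further genes were named for their role. The alternatives tried are scaling, pseudocount, filter, size rule and unit. List genes that the text does not name enter its counts and medians only; 1 gene that the text would otherwise name is not reported here.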

Additional observations from a re-analysis of the deposited data

How the results depend on the processing

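Each member kept its direction, and its log2 ratio stayed inside the counting interval, under total-count scaling, DESeq2 1.42.0 size factors, the deposited TPM and pseudocounts of 0.1 and 1 CPM. ULBP1 ranged from −0.98 to −0.92. The median over all measured genes moved between −0.01 and 0.02. Of the 5 members' counting intervals, that of MICB came to include 0 with the deposited TPM (−0.15 to 0.01). The number of genes at least 1.5-fold lower, 205, was 349 with the deposited TPM, 132 with a pseudocount of 1, 349 without the expression filter, 96 with a minimum of 5 CPM and 17 at 2-fold. The number higher, 193, was 462 with the deposited TPM and 337 without the filter. It was 276 with a pseudocount of 0.1, 142 with a pseudocount of 1, 109 with a minimum of 5 CPM and 17 at 2-fold. Of 76 list medians recomputed, 74 stayed inside the interval of their middle genes; the carcinoma markers moved from −0.33 to −0.22 with the deposited TPM and to −0.24 without the filter, with a 4th gene measured in both. As shares of counts in place of TPM, ULBP1 was 8.42% and 4.41% and MICA with MICB 82.1% and 87.9% in the control and knockdown library. By the length of the longest GENCODE transcript, an alternative added after seeing the data, the control level over that of ULBP1 moved from 1.16 to 0.831 for ULBP2 and from 1.13 to 2.45 for ULBP3. No paired analysis was possible because each group has 1 library.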
